A study of Mus musculus with 30 samples.

Results

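Hearts of mice that had received the carbon black Printex 90 were compared between day 28 (5 mice) and day 1 (6 mice) after the instillation, over all mouse microRNAs (miRNAs) on the array. These 11 arrays, out of 30 samples, were taken by their source label, and 306 of the 1079 mouse miRNAs on the array could be tested. All animals were female C57BL/6 mice, 5 to 6 weeks old on arrival. Each was given 1 intratracheal instillation of 40 µl saline that held 10% acellular lavage fluid of C57BL/6 lungs, with 162 µg Printex 90 (a commercial powder of carbon nanoparticles) or without particles, and the vehicle mice are described here only beside the exposed ones. Signals were also used from vehicle hearts of day 1 (4 mice) and day 28 (4), and the fit of the spread took in day 3 (6 vehicle and 4 Printex 90 mice). RNA came from a section of the heart with both ventricles, so a level is that of a mix of cells, in which fewer cells of a type and less RNA per cell cannot be told apart. Mice killed on day 28 had also lived longer than those killed on day 1. Within the exposed mice age and time since instillation cannot be told apart, and the vehicle mice give the change over the same interval without particles.

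miRNAs are short RNAs that bind messenger RNAs, chiefly through the seed, bases 2 to 8 from the 5′ end, and lower their translation or stability. Cardiac myosin genes carry miRNAs in their introns: Myh6, which encodes the alpha heavy chain of the adult mouse ventricle, holds miR-208a, Myh7, which encodes the beta chain that prevails before birth, holds miR-208b, and Myh7b holds miR-499. The miR-29 family is known to repress collagens and other matrix transcripts, miR-301a and miR-130a belong to 1 seed family, and miR-146a and miR-155 are induced by innate immune signalling.

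The day 28 arrays were alike in the share of bright spots and the day 1 arrays were not. Spots well above background made up 23.9% to 25.6% of each day 28 array, with a mean of 24.7% ± 0.631 (SD, n = 5), and 19.2% to 27.3% of each day 1 array, with a mean of 23.6% ± 3.35 (SD, n = 6). Between 295 and 314 miRNAs were detected on day 28 and between 238 and 339 on day 1, and the 3 arrays with the lowest shares were day 1 replicates 4, 5 and 6. By the 75th percentile of the signal, on which arrays were scaled, only replicates 5 and 6 were dim (512 and 444): replicate 4, at 842, was above all 5 day 28 arrays (646 to 752) and above day 1 replicate 3 (769). Day 1 replicate 5 also stood apart in single miRNAs. It was the outlying array of its group for 19 of the 306 tested (6.21%), while replicate 4, the next among the day 1 arrays, was for 6. Among the day 28 arrays replicates 4 and 5 were outlying for 12 (3.92%) and 9 (2.94%). In the heart of day 1 replicate 5 the smooth muscle miRNAs miR-143 and miR-145 were at 11.65 and 7.83 on the log2 scale. They were at most at 9.99 and 6.70 in the other 5 hearts of day 1. Each of the 4 slides held arrays of both groups. As for the heart label, the muscle miRNA miR-1a was at 15.87 to 16.11 on day 1 and 15.93 to 16.14 on day 28, and of the 46 array miRNAs listed for other tissues (brain, liver, pancreas, epithelia, cilia) only 3, miR-122, miR-219-5p and miR-34b-3p, could be tested.

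The sequences below are the miRNAs that passed the test and the relatives described beside them, shown so that what they share can be read from the letters. They are mature sequences from RefSeq (GRCm38.p6) with the seed in capitals, and 15 of the 16 names looked up were found, all but miR-301b. miR-130b, also of the miR-301a seed, was not among the tested miRNAs. The array's names carry no arm for most of them, and the arm usually meant by the bare name was taken.
miR-208b (3p arm): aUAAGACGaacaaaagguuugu
miR-208a-3p: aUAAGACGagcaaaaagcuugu
miR-499 (5p arm): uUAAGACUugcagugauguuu
miR-29a (3p arm): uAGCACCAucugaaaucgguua
miR-29b (3p arm): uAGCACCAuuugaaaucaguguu
miR-29c (3p arm): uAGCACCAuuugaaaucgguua
miR-29c* (5p arm): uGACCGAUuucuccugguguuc
miR-301a (3p arm): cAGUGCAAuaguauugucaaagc
miR-130a (3p arm): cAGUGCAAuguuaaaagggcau
With positions counted from the 5′ end, miR-208a-3p and miR-208b share their seed and differ at 3 of 22 bases (G10A, A16G and C18U). Both lie on the minus strand of chromosome 14, miR-208b at chr14:54975710-54975731 within Myh7 and miR-208a-3p at chr14:54949072-54949093 within Myh6. The arms of miR-29a and miR-29c differ at 1 base (C10U), and miR-29b shares the first 17 bases of miR-29c. miR-29c is at chr1:195037600-195037621 and 1 copy of miR-29b at chr1:195037091-195037113, both on the plus strand in the non-coding gene A330023F24Rik. The other copy of miR-29b, at chr6:31063025-31063047, neighbours miR-29a, at chr6:31062673-31062694, both on the minus strand. miR-301a, at chr11:87113054-87113076 on the plus strand within Ska2, shares its first 9 bases with miR-130a, at chr2:84741116-84741137 on the minus strand.

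By day 28, miR-208b and miR-301a had fallen and miR-29b and miR-29c had risen in the exposed hearts. These 4 of 306 (1.31%) passed an adjusted p of 0.05 in limma (Benjamini-Hochberg over all 306), 2 higher (0.654%) and 2 lower (0.654%). All differences are day 28 minus day 1 on the log2 scale of the scaled signal, with the standard error of the fit. At an unadjusted p under 0.05 there were 13 higher and 7 lower. By value alone 225 miRNAs were higher and 81 lower, with a median difference of 0.10, and that split moved with the scaling of the arrays: 128 were higher and 178 lower when arrays were scaled on all probes (median -0.07), 160 and 146 with quantile normalization (0.02), 178 and 128 with no scaling (0.04), 130 and 176 in the deposited series table (-0.02). The 95% interval of the difference stayed inside 1.5-fold in 177 miRNAs and inside 2-fold in 234. In 5 miRNAs (1.63%) the values of the 2 groups did not overlap: the 4 above and miR-29c*.

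**Figure D1:**
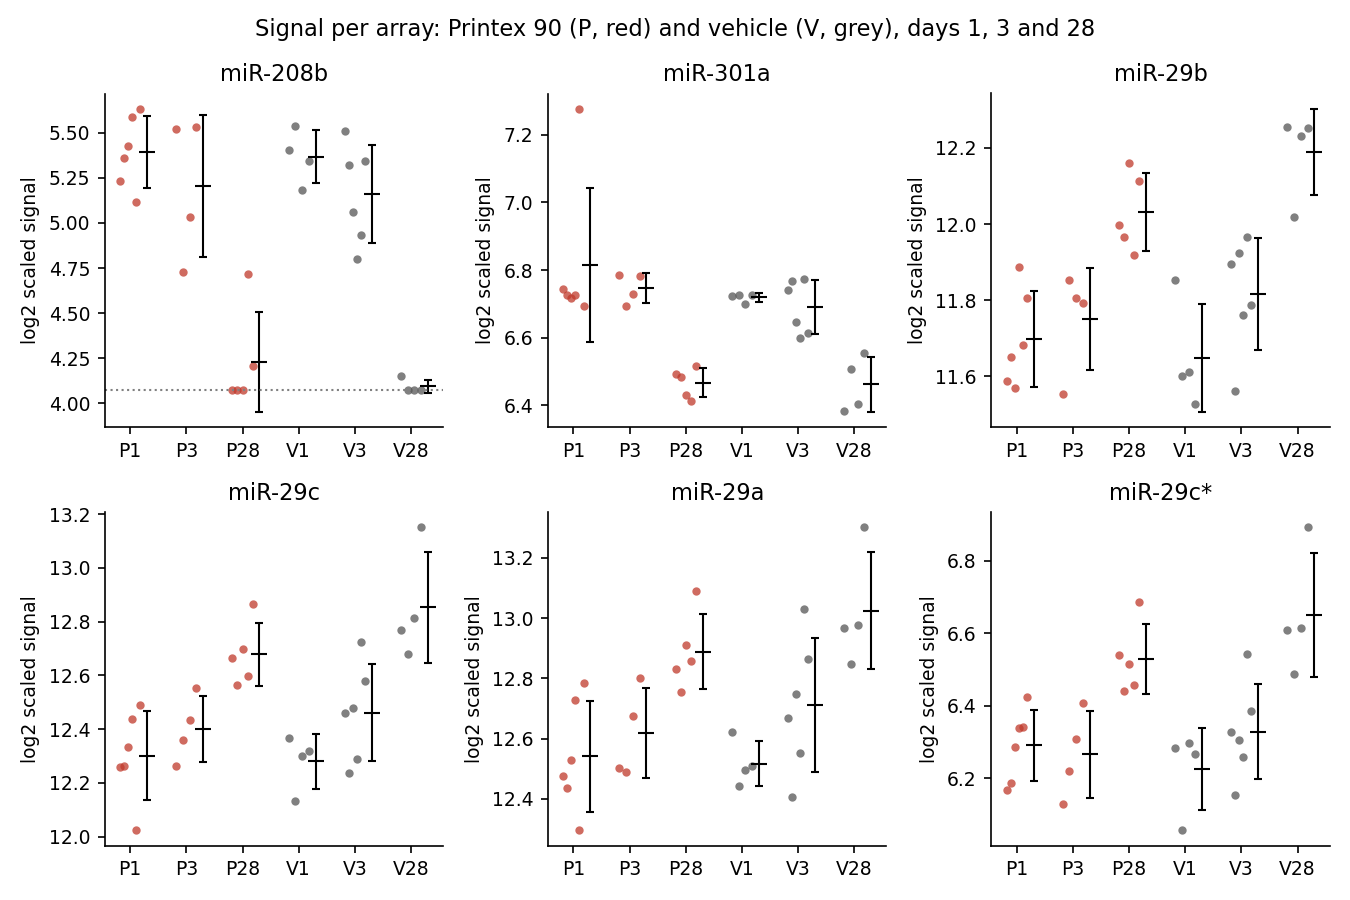
Log2 scaled signal of 6 miRNAs on each array, for Printex 90 (P, red) and vehicle (V, grey) hearts on days 1, 3 and 28; points are single mice, the black bar is the mean with its SD, and the dotted line in the miR-208b panel is the floor of 4.08. In Printex 90 hearts miR-208b lay between 5.12 and 5.63 on day 1 and between 4.08 and 4.72 on day 28, and miR-29b between 11.57 and 11.89 and then between 11.92 and 12.16.

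miR-208b, the miRNA of the beta-myosin gene, had the smallest p of all tested miRNAs. On day 1 its lowest, median and highest values were 5.12, 5.39 and 5.63, and on day 28 the 5 hearts gave 4.08, 4.08, 4.08, 4.72 and 4.21, of which 4.08 is the floor to which dim signals were raised. All day 28 hearts lay below all day 1 hearts. Its probes were detected on 5 of 6 arrays on day 1, 4 of 4 on day 3 (mean 5.20 ± 0.39, SD, n = 4) and 0 of 5 on day 28. The fitted difference was -1.16 ± 0.15 (limma, adjusted p = 9.94e-06), and since day 28 was not well above background the fall is a bound, at least 1.69-fold lower. Day 28 values raised to the same floor have no spread between them, so the p-value does not measure the spread of that group. miR-208b passed the filter through the groups in which it was detected, and was not tested where probes had to be detected on all arrays. Its 2 probes gave -1.14 and -1.18. Within the 4 slides the difference was -0.79, -1.17, -1.16 and -1.28, and leaving out any 1 of the 11 arrays kept it between -1.28 and -1.11 with the call in 11 of 11 fits. The call ended without scaling (-0.98, adjusted p = 0.199) and with normexp background correction (-0.31, adjusted p = 0.814), and the value was -2.27 with the software's total gene signal, -0.60 with a higher floor (adjusted p = 0.0173) and -0.48 in the series table (adjusted p = 0.000270).

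The relatives of miR-208b in the other myosin genes did not pass. miR-208a-3p, with the same seed, was at 8.51, 8.83 and 9.02 (lowest, median and highest) on day 1 and at 8.75, 8.59, 8.88, 8.61 and 8.84 on day 28, so the groups overlapped. Its difference was -0.07 ± 0.10, with a 95% interval from -0.29 to 0.15, and that of miR-208a-5p was -0.02 ± 0.09. miR-499 was at 0.26 ± 0.14. The difference between miR-208b and miR-208a was not tested.

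miR-301a was the other miRNA that fell. On day 1 its lowest, median and highest values were 6.69, 6.73 and 7.28, and on day 28 they were 6.49, 6.48, 6.43, 6.41 and 6.52. The groups did not overlap, and the highest value was that of day 1 replicate 5, with the next at 6.74. The difference was -0.35 ± 0.08, or 1.27-fold lower (limma, adjusted p = 0.0215), and -0.25 (adjusted p = 0.00264) without replicate 5. Within slides it was -0.31, -0.47, -0.25 and -0.27. The call ended without day 28 replicate 2 (adjusted p = 0.0512), 3 (0.0777) or 4 (0.0540), and when only the 11 arrays were fitted (0.574). It also ended with scaling on all probes (-0.52, adjusted p = 0.659), by quantiles (-0.55, 0.158) or not at all (-0.39, 0.992), with normexp (-0.19, 0.894) and in the series table (-0.29, 0.466), always with the same sign.

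miR-130a, which shares the seed of miR-301a, was at 10.28, 10.34 and 10.57 on day 1 and at 10.09, 10.25, 10.09, 10.08 and 10.36 on day 28, with 1 day 28 heart among the day 1 values. Its difference of -0.20 ± 0.09 did not pass (limma, adjusted p = 0.611). miR-148a, of another seed family, had a like value of -0.21 ± 0.09 that did not pass either, while its seed relatives miR-148b and miR-152 were at 0.00 ± 0.07 and 0.03 ± 0.10.

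Of the matrix-repressing miR-29 family, miR-29b and miR-29c rose by small amounts. miR-29b was at 11.57, 11.67 and 11.89 (lowest, median and highest) on day 1 and at 12.00, 11.96, 12.16, 11.92 and 12.11 on day 28. Every day 28 heart was above every day 1 heart, and the difference was 0.33 ± 0.08, or 1.26-fold (limma, adjusted p = 0.0458). miR-29c was at 12.02, 12.30 and 12.49 on day 1 and at 12.66, 12.57, 12.70, 12.60 and 12.87 on day 28, again without overlap, and its difference was 0.38 ± 0.10, or 1.30-fold (limma, adjusted p = 0.0498). On day 3 the means were 11.75 ± 0.13 and 12.40 ± 0.12 (SD, n = 4). Within the 4 slides miR-29b differed by 0.19, 0.37, 0.41 and 0.41 and miR-29c by 0.21, 0.61, 0.40 and 0.37.

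The other arms of the family had values on the same side but did not pass. miR-29a was at 12.29, 12.50 and 12.78 on day 1 and at 12.83, 12.76, 12.91, 12.86 and 13.09 on day 28, where only the lowest day 28 heart reached into the day 1 range (0.35 ± 0.11; limma, adjusted p = 0.151). miR-29c*, the opposite arm of miR-29c, was at 6.17, 6.31 and 6.42 on day 1 and at 6.54, 6.44, 6.51, 6.46 and 6.69 on day 28 without overlap (0.24 ± 0.08; limma, adjusted p = 0.257). miR-29a* was at 0.24 ± 0.21. With slide as a fixed or random block miR-29a and miR-29c* passed too, and also with total gene signal. Neither passed, and miR-29c* was lower, under other processing. With scaling on all probes miR-29a and miR-29c* were at 0.18 and 0.07, and by quantiles at 0.27 and 0.03. They were at 0.34 and 0.12 with normexp and at 0.21 and 0.04 in the series table. Whether the probes tell apart miR-29a, miR-29b and miR-29c, whose sequences are close, was not tested.

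Both calls in the miR-29 family were close to the threshold. When 1 of the 11 arrays was left out, the differences of miR-29b stayed between 0.30 and 0.37 and those of miR-29c between 0.32 and 0.41, but each passed in only 2 of 11 fits, without day 1 replicate 4 or 6, with adjusted p-values up to 0.178 and 0.259 in the others. Neither passed when arrays were scaled on all probes (0.17 and 0.21), by quantiles (0.25 and 0.25) or not at all (0.29 and 0.33), in the series table (0.16 and 0.23), or when detection was counted over non-outlying spots (adjusted p = 0.0510 and 0.0560). The same held with normexp (0.0755 for both), the brightest probe (0.0789 and 0.0681) and a fit of the 11 arrays alone (0.283 for both). miR-29b alone lost its call with total gene signal (0.0855), and miR-29c alone with the share of bright spots in the fit (0.0648) and without day 1 replicates 4, 5 and 6 together (0.119). The sign was positive in all of these.

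**Figure D2:**
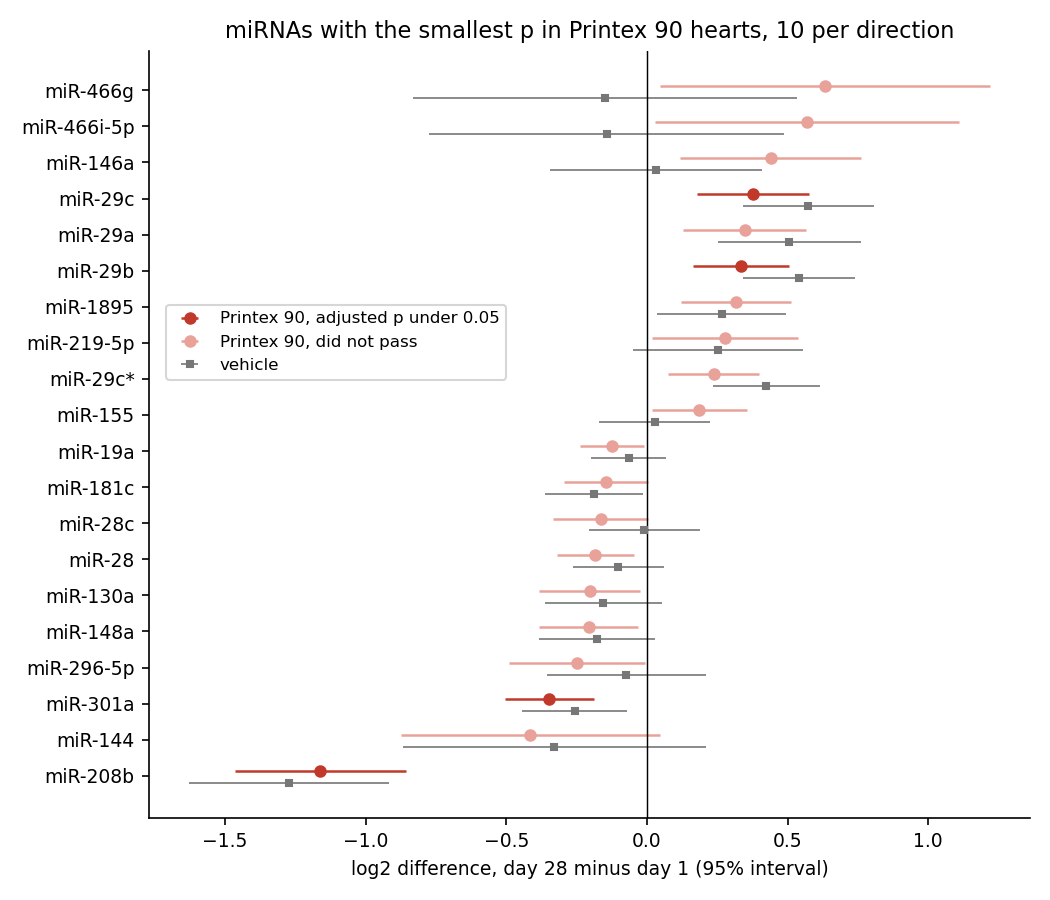
Log2 difference, day 28 minus day 1, with its 95% interval, for the 10 miRNAs with the smallest p in each direction in Printex 90 hearts (circles, dark red where the adjusted p was under 0.05), and the same difference in vehicle hearts (grey squares). The vehicle values of miR-208b, miR-301a, miR-29b and miR-29c (-1.27, -0.26, 0.54 and 0.57) lie on the same side of 0 as the Printex 90 values (-1.16, -0.35, 0.33 and 0.38).

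Whether these changes over time differed from those without particles was tested against the vehicle hearts. In vehicle hearts miR-208b differed by -1.27 ± 0.17 and was detected on 4 of 4 arrays on day 1 and 0 of 4 on day 28. miR-301a differed by -0.26 ± 0.09, miR-29b by 0.54 ± 0.10 and miR-29c by 0.57 ± 0.11. All 4 values had the same sign in exposed and vehicle hearts. For miR-208b both day 28 means rested on values at or near the floor, so whether its fall differed between exposed and vehicle hearts could not be measured. The difference between the exposed and the vehicle change was -0.09 ± 0.12 for miR-301a, -0.21 ± 0.13 for miR-29b and -0.20 ± 0.15 for miR-29c, and none of these 3 passed.

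Over all 306 miRNAs, 0 (0%) passed the test of that difference in limma, 3 had an unadjusted p under 0.05, and the smallest adjusted p was 0.484. The count was 0 under all alternatives run. The smallest p on the low side was that of miR-31, which was at 0.09 ± 0.10 in exposed and 0.45 ± 0.12 in vehicle hearts (difference -0.36 ± 0.15), followed by miR-101c (-0.20 ± 0.10), miR-29b and miR-101a (-0.15 ± 0.09). On the high side were miR-3112* (0.76 ± 0.37), miR-3102-3p.2 (0.66 ± 0.32), miR-467d* (0.83 ± 0.43) and miR-1188* (0.92 ± 0.48).

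**Figure D3:**
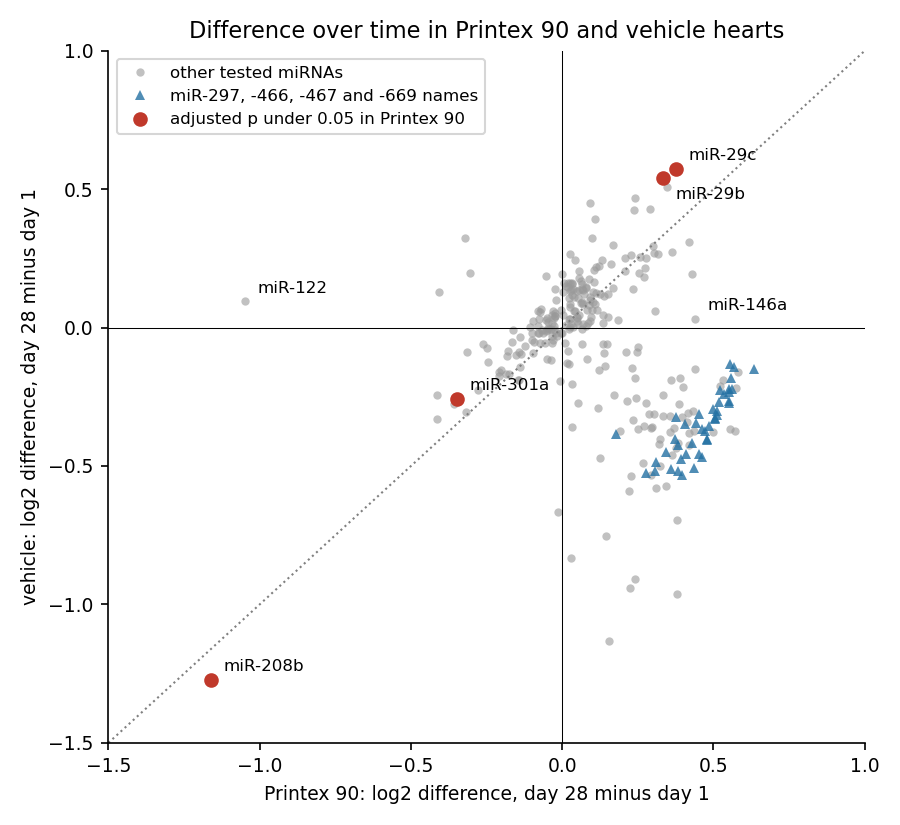
Each point is 1 of the 306 tested miRNAs, with its log2 difference, day 28 minus day 1, in Printex 90 hearts (x axis) and in vehicle hearts (y axis); red points passed in Printex 90 hearts, blue triangles are the 42 miRNAs named miR-297, miR-466, miR-467 or miR-669, and the dotted line marks equal differences. The 4 red points have the same sign on both axes, and the triangles lie at higher values in Printex 90 (median 0.47) and lower ones in vehicle hearts (median -0.35).

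miRNAs induced by innate immune signalling had small differences that did not pass. miR-146a, a brake on that signalling, was at 6.14, 6.54 and 6.77 on day 1 and at 7.02, 7.59, 6.59, 6.81 and 6.83 on day 28, with 1 day 28 heart inside the day 1 range. Its difference was 0.44 ± 0.16 (limma, adjusted p = 0.367), against 0.03 ± 0.18 in vehicle hearts, and the difference between the 2, 0.41 ± 0.24, did not pass (adjusted p = 0.484). The values were 0.19 ± 0.08 for miR-155 (-0.02 in the series table), 0.31 ± 0.16 for miR-132, and -0.06 ± 0.11 for miR-21, which was at 0.06 without day 1 replicate 5. Of this list of 12 on the array 4 were tested, 3 with higher values, 0 passed, and the median was 0.25 (0.10 over all tested) and 0.03 in the series table.

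The remaining miRNAs among the 10 with the smallest p per direction did not pass either. Higher by value were miR-1895 (0.32 ± 0.10; limma, adjusted p = 0.151) and miR-219-5p (0.28 ± 0.13). Lower by value were miR-28 (-0.18 ± 0.07; limma, adjusted p = 0.378), its relative miR-28c (-0.16 ± 0.08), miR-19a (-0.12 ± 0.06) and miR-181c (-0.15 ± 0.07). miR-296-5p was detected on 4 of 6 arrays on day 1 and 0 of 5 on day 28, with values of 4.30, 4.56 and 5.18 and then 4.41, 4.54, 4.17, 4.44 and 4.39 that overlapped, and its difference was -0.25 ± 0.12 (0.12 with total gene signal).

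In the lists of heart cell types 3 miRNAs passed, all among those above. The counts below stand beside 225 of 306 higher by value and 4 of 306 (1.31%) past the threshold over all tested miRNAs. Of 10 tested muscle miRNAs 5 were higher and 5 lower by value (median 0.05), and 1, miR-208b, fell. miR-1a, the most used marker of muscle, was at -0.03 ± 0.07 and its partner miR-133a at 0.14 ± 0.09. Of 10 tested fibroblast and matrix miRNAs 8 were higher (median 0.15), and 2, miR-29b and miR-29c, rose; the 5 that are not miR-29 arms lay between -0.06 (miR-21) and 0.06 (miR-199b*). In the 13 tested miRNAs of heart growth and stress 10 were higher and 0 passed (median 0.04), miR-22 at 0.10 ± 0.06 and miR-320 at 0.16 ± 0.08. Endothelial miR-126-3p was at 0.10 ± 0.08, and 3 of 4 tested in its list were higher with 0 past the threshold. These directions by value depended on the scaling. When arrays were scaled on all probes, 3 of 10 muscle, 5 of 10 fibroblast and matrix, 2 of 13 growth and stress and 1 of 4 endothelial miRNAs were higher, and miR-133a, miR-22, miR-320 and miR-126-3p were at -0.03, -0.06, -0.01 and -0.07.

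Markers of blood and of other tissues were at these levels. Red cell miR-451 was at 13.64, 14.22 and 14.67 on day 1 and at 13.51, 14.60, 14.09, 13.78 and 13.65 on day 28, with wide overlap (-0.28 ± 0.22), and miR-144, from the same transcript, was at -0.42 ± 0.22. Of the 4 red cell miRNAs tested 3 were lower (median -0.32), but 3 of 4 were higher (median 0.05) without day 1 replicates 4, 5 and 6. Those arrays had the highest red cell means of day 1, so leaving them out had to raise the difference. Among leukocyte miRNAs myeloid miR-223 was at 0.09 ± 0.09 (-0.08 when scaled on all probes) and miR-142-3p at -0.14 ± 0.17; 2 of 4 were higher and 0 of 4 passed. Liver miR-122 ranged from 4.52 to 8.00 on day 1 and from 4.08 to 6.34 on day 28, and its difference of -1.05 ± 0.68 did not pass. Of the 3 tested miRNAs of other tissues the other 2 were higher by value, miR-219-5p (0.28) and miR-34b-3p (0.36 ± 0.31). The median was 0.28 and 0 passed. Both smooth muscle miRNAs were lower by value, miR-143 at -0.26 ± 0.21 and miR-145 at -0.18 ± 0.18, and at 0.03 and 0.04 without day 1 replicate 5.

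Families and clusters had these counts, again beside 225 of 306 higher over all, with 0 members past the threshold in each. The miR-17 and miR-106b clusters, which promote cell growth, were lower by value in 9 of 10 (median -0.09), with miR-19b at -0.10 ± 0.06 and miR-17* at -0.17 ± 0.10. Within the 4 slides, though, 1, 3, 0 and 7 of these 10 were higher. The miR-181 family was lower in 4 of 4 (median -0.09), but in 3 of 4 with total gene signal, and within the 4 slides 0, 4, 0 and 3 of its 4 were higher. Higher by value were 10 of 13 let-7 (median 0.05), 8 of 11 miR-30 (0.03), 5 of 8 miR-15/16 (0.04), 7 of 7 miR-10, miR-99, miR-100 and miR-125 (0.07), 4 of 5 miR-101 and miR-26 (0.03) and 5 of 8 Dlk1-Dio3 miRNAs (0.04). These last 6 turned with the scaling: on all probes 2 of 13, 1 of 11, 2 of 8, 1 of 7, 0 of 5 and 2 of 8 were higher. The hypoxia-induced miR-210 was at -0.05 ± 0.08 and the p53-induced miR-34a at 0.13 ± 0.07 (-0.03 on all probes), and 3 of 5 in their list were higher. Of the 9 tested miRNAs numbered from miR-5000 to miR-5199, 7 were higher (3 on all probes).

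The largest list was that of the 42 tested miRNAs whose names begin with miR-297, miR-466, miR-467 or miR-669, names known from a large repeat-derived cluster in an intron of Sfmbt2. All 42 were higher by value on day 28, with differences between 0.18 and 0.63 and a median of 0.47, but 0 of 42 passed and 5 had an unadjusted p under 0.05. Over all tested miRNAs 225 of 306 were higher (median 0.10), 4 passed and 20 had an unadjusted p under 0.05. In vehicle hearts 0 of 42 were higher (median -0.35, and -0.05 over all tested). miR-466g, with the largest value, was at 6.46, 7.92 and 8.26 on day 1 and at 8.52, 8.27, 8.24, 8.38 and 8.09 on day 28 (0.63 ± 0.28; limma, adjusted p = 0.611).

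Within day 1 the low values of these 42 were on the 3 arrays with a low share of bright spots. Their mean was 7.15, 7.27 and 7.21 in day 1 replicates 1, 2 and 3, and 5.40, 6.34 and 6.28 in replicates 4, 5 and 6. The lowest mean was that of replicate 4, which was not dim by its 75th percentile. On day 28 the mean was 7.20, 6.78, 6.98, 7.41 and 6.95. In vehicle hearts of day 28 it was 6.96, 7.19, 6.19 and 6.40, on arrays with shares of 23.2%, 26.7%, 22.8% and 25.2%. Of these, the mean of 6.40 was at a share of 25.2% and that of 6.19 at 22.8%. Shares of the exposed day 28 arrays ran from 23.9% to 25.6%. On day 3 the lowest means were 5.77 and 5.94 (vehicle replicates 4 and 6) and 6.12 (Printex 90 replicate 2). Their shares were 18.4%, 20.2% and 22.1%. The part of the share in these means was not tested. With day 1 replicates 4, 5 and 6 left out 6 of 42 were higher and the median difference was -0.16. Without replicate 4 alone it was 0.21. Those 3 arrays had the lowest day 1 means, so leaving them out had to lower the difference, and this is no test of it. The share of bright spots also counts the spots of these 42. The median difference was 0.28 with that share in the fit. It was -0.06 with array weights, which did not converge, where 18 of 42 were higher. Within slides it was 1.10, 0.59, 0.04 and -0.46.

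**Figure D4:**
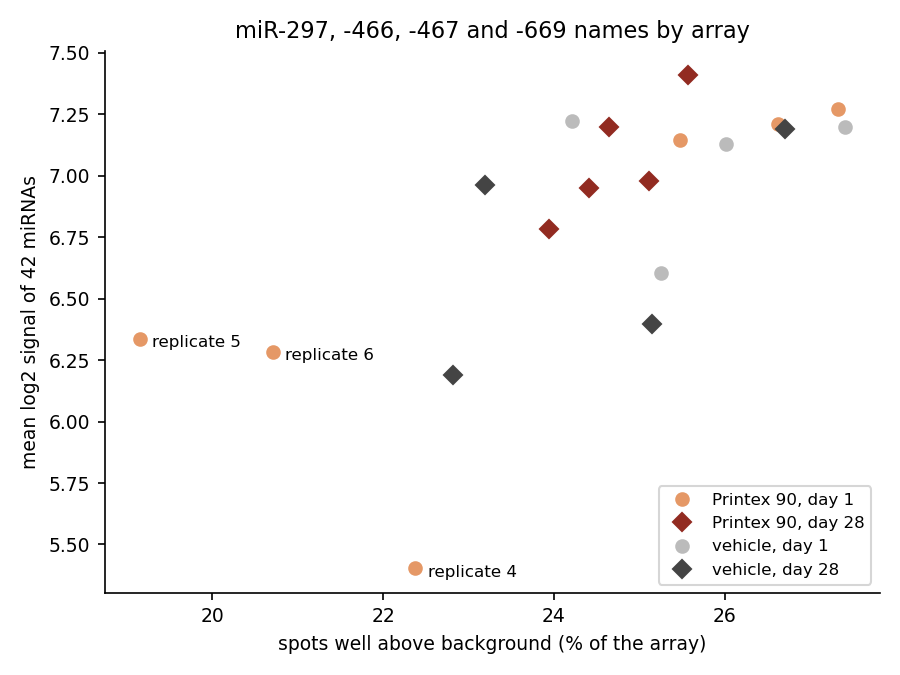
Mean log2 signal of the 42 miRNAs named miR-297, miR-466, miR-467 or miR-669 on each array (y axis) against the share of spots well above background (x axis), for Printex 90 and vehicle hearts of days 1 and 28. Day 1 replicates 4, 5 and 6 of Printex 90 have shares of 22.4%, 19.2% and 20.7% and means of 5.40, 6.34 and 6.28, and the 5 day 28 arrays lie between 6.78 and 7.41.

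Of the 42 names 6 stood unchanged in the RefSeq table, and 0 of those 6 lay within Sfmbt2. The 6 hold runs of alternating C and A or alternating U and G. The longest such run was 7 to 12 bases long in the 6 (median 10), and its median was 3 in the other 69 tested miRNAs whose sequence could be read. A run of at least 10 bases was found in 3 of the 6 and in 3 of the 69, miR-574-5p, miR-1187 and miR-3082-5p. The 2 miRNAs with the longest runs among the 6 and the 2 with the longest among the 69 are shown, again with the seed in capitals.
miR-467f: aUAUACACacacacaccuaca
miR-466q: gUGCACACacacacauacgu
miR-574-5p: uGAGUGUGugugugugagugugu
miR-1187: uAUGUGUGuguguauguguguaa
The 3 outside the named list had values like those within it: 0.52 ± 0.28 for miR-574-5p, 0.57 ± 0.31 for miR-1187 and 0.58 ± 0.29 for miR-3082-5p in exposed hearts, and -0.21, -0.22 and -0.16 in vehicle hearts. Some miRNAs with shorter runs also had values on these sides. Those given here were picked for that pattern, which was not counted over the 69. miR-574-3p (longest run 7) was at 0.53 in exposed and -0.19 in vehicle hearts. Exposed and vehicle values were 0.43 and -0.30 for miR-207 (longest run 2), 0.38 and -0.43 for miR-1894-5p (3) and 0.32 and -0.50 for miR-615-3p (2). Others with short runs did not have this pattern, such as miR-1904 (2) with 0.30 in both. miR-574-5p was at 8.05, 8.02 and 8.16 in day 1 replicates 1, 2 and 3, at 6.37, 7.06 and 7.31 in replicates 4, 5 and 6, and at 8.19, 7.97, 8.02, 8.09 and 7.81 on day 28. Its 3 low values were on the arrays with a low share of bright spots. The part of that share and of the repeat in the differences of miR-574-5p, miR-1187 and miR-3082-5p was not tested.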

How the data were processed

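RNA of single hearts was hybridised to Agilent miRNA arrays in 1 colour. The authors used Feature Extraction 10.7.3.1, per the file headers, and the deposited files hold background-subtracted signal intensity per spot on a linear scale. The deposited series table gives log2 intensity per miRNA, with scaling unstated (column medians 5.78 to 5.82; rank correlation with the median spot signal at least 0.983), and served as an alternative. The file of 1 day 3 exposed mouse held no signal, so 29 arrays were fitted.

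Signals were averaged per probe without outlying spots. A probe was detected where a fraction of 0.5 or more of its spots stood well above background. Scaling used the 75th percentile, over the 418 probes that every array detected. Signals were raised to a floor of 16.9 (4.08 in log2), and 621 probes detected on at least 4 arrays of 1 group gave 306 miRNAs, with 1.87% of values at the floor. limma 3.58.1 under R 4.3.3 fitted all 6 groups together (23 residual degrees of freedom, median residual SD 0.27); tests are two-sided, with Benjamini-Hochberg adjustment over 306. For a miRNA detected in 1 group only, the bound compares its mean with, on each array of the other group, the higher of that array's lowest detected signal and the probe's own. The script was tested on simulated data.

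Named miRNAs are the 10 with the smallest p per direction, 4 per direction for the difference from vehicle, up to 3 per list and a fixed set. Members and lists were chosen with earlier results of these data known. The labels do not say more of the replicates than 1 mouse each.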

Additional observations from a re-analysis of the deposited data

Results flagged for a closer look

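Single arrays stood apart from the rest of their group for 16 values among the named miRNAs; the criterion, a gap to the nearest array that is large against the range of the group, marks about 1 group in 20 by chance. On day 1, replicate 5 had the highest value of miR-143 (11.65), miR-145 (7.83), miR-21 (11.24) and miR-301a (7.28) and the lowest of miR-181c (6.24). Also on day 1, replicate 6 was highest in miR-19a (7.29) and lowest in miR-29a* (4.57), replicate 4 was lowest in let-7b* (4.98), and replicate 2 was lowest in miR-1a (15.87). On day 28, replicate 4 was highest in miR-208b (4.72, not well above background), miR-3112* (5.49), miR-3102-3p.2 (6.00) and miR-15a* (5.77), and replicate 5 was highest in miR-133a (14.01), miR-34a (9.73) and let-7e (9.10). Over all 306 tested miRNAs the largest number for 1 array was 19, for day 1 replicate 5, of which it was highest in 11 and lowest in 8.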

How the results depend on the processing

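The number of miRNAs past the threshold, 4 in the comparison of day 28 with day 1 (2 higher, 2 lower), moved with the processing, and the causes were not tested. It was 1 (0 higher, 1 lower) with scaling on all probes, with quantile normalization, in the series table and when only the 11 arrays compared were fitted, 0 (0 and 0) with no scaling and with normexp (16 with an unadjusted p under 0.05 in normexp, 1 with no scaling), and 2 (0 and 2) with the brightest probe and with detection over non-outlying spots. It was 5 with total gene signal (3 higher) and with no filter (3 higher), 3 with detection on all arrays (1 lower) and with the brightness covariate (1 higher), 6 with slide as a fixed or random block (4 higher), 11 with array weights that did not converge (4 higher, 7 lower), and 4 with an intensity trend or a higher floor. Leaving out 1 array gave 1 to 4 in all, 0 to 2 higher and 1 to 2 lower. Without day 1 replicates 4, 5 and 6, the arrays with the lowest share of bright spots, it was 3 (1 higher). No called miRNA changed sign, and of 2214 alternative values of named miRNAs 82 did, none of them called (0 reversed).

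Normexp used the median spot signal, the only raw one in the files. The floor at the 5th percentile of all signals was not run, since that percentile was negative; detected signals, detection over non-outlying spots and leaving out those 3 arrays were chosen after seeing the data. No paired analysis was possible because the labels give no shared replicate numbers. The 5 and 6 arrays limit the precision: the 95% interval stayed inside 2-fold in 234 of 306 miRNAs and reached past it in the others. The level of miR-208b on day 28 was not well above background.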
